A study of Homo sapiens with 18 samples.

Results

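The RNA interference and microRNA machinery was followed as 10 genes in THP-1, a monocyte-like cell line derived from a human acute leukaemia. The rule takes the members by name and uses no measured value, although it was set with earlier results of these data known: the Argonautes AGO1, AGO2, AGO3 and AGO4, the enzyme DICER1 with its partners TARBP2 and PRKRA, the Microprocessor subunits DROSHA and DGCR8, and the export receptor XPO5. All 10 were found by Ensembl identifier among the 63677 genes of the count table, and all 10 were among the 16678 genes that passed the filter on low counts and were tested. The question behind the choice was whether cells loaded with a small interfering RNA (siRNA) hold different amounts of the transcripts that process and use such RNAs.

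In the study, THP-1 cells were transfected with 25 nM of 1 siRNA against TRAFD1 (KD), with 25 nM of a scrambled siRNA (SCR), or were kept without an siRNA (WT). At 72 h they received lipopolysaccharide (LPS), a component of the bacterial outer membrane, at 10 ng/ml for 4 h, or were left unstimulated. There were 3 libraries in each of the 6 groups (replicates 1 to 3 unstimulated, replicates 4 to 6 after LPS), from triplicate treatments of 1 cell line, so that p-values measure only the spread between these samples, which may be technical. The sources disagree on whether WT cells received the transfection reagent, so the reagent and the siRNA cannot be told apart in any difference from WT.

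In the microRNA pathway, DROSHA and DGCR8 cut hairpins out of primary transcripts in the nucleus, XPO5 carries the hairpins to the cytoplasm, and DICER1 with TARBP2 or PRKRA trims them to short duplexes. An Argonaute protein takes up 1 strand of the duplex as a guide, and AGO2 is the human Argonaute best known for cutting a perfectly matched target. A synthetic siRNA enters at the Argonaute step, so it needs neither the Microprocessor nor nuclear export, and it competes with microRNAs for Argonautes. In monocytes and macrophages microRNAs such as miR-155 and miR-146a are known to tune the response to LPS.

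The siRNA target is shown because its complement is the strand that an Argonaute would have to hold in KD cells. It lies in the coding sequence of TRAFD1, in exon 10 of 12, on the + strand of GRCh37 at chr12:112589676-112589696, and occurred once on that chromosome. If the strand complementary to the whole target is the guide, which the sources do not state, its bases 2 to 8 (the seed) pair with the letters in capitals of the target and are in capitals in the complement.
siRNA target: cccagccgacccaTTAACAAt
complement of the target: aTTGTTAAtgggtcggctggg

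The match to that seed, TTAACAA, was looked for on the sense strand of the longest annotated 3′ untranslated region (UTR) of each gene (GENCODE v44lift37), and 17.5% of 12479 tested genes held it. Among the machinery, AGO1, AGO4, DICER1 and DROSHA held 1 match each and AGO3 held 2, in UTRs of 938 bases (DROSHA) to 16755 bases (AGO3). AGO2, TARBP2, PRKRA, DGCR8 and XPO5 held 0 in these windows. The matches in DROSHA and AGO4 are shown because these were the genes called lower in KD than in WT below. Before LPS both were also lower in SCR than in WT, by -0.21 (DROSHA, SE 0.09) and -0.37 (AGO4, SE 0.12), without a call. KD minus SCR was -0.15 (DROSHA, SE 0.09) and -0.05 (AGO4, SE 0.13) before LPS, neither called. With LPS it was -0.21 (DROSHA, SE 0.09), 0.14 (AGO4, SE 0.13) and -0.54 (DICER1, SE 0.17), none called. AGO1 and AGO3, which also held matches, had -0.09 and 0.01 before LPS and 0.10 and 0.18 with LPS. DICER1 had 0.01 before LPS. Members without a match ran from -0.41 (DGCR8) to 0.41 (AGO2) before LPS. With LPS they ran from -0.43 (DGCR8) to 0.06 (TARBP2), again without a call. The part of the matches in these differences was not tested.
DROSHA, UTR position 531: aatccgtTTAACAAttaattg
AGO4, UTR position 3540: ccactgtTTAACAAggctcac
A match is a description of letters, not a site. Between KD and SCR, which carry different siRNAs, the median log2 fold change of all genes with the match was -0.02 in unstimulated cells against -0.0035 without it, and 0.01 against 0.02 with LPS.

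The knockdown of the target was called before LPS and not with LPS. TRAFD1 stood at 22.2, 21.2 and 18.3 CPM (counts scaled to the library total after TMM adjustment) in unstimulated WT, at 26.8, 20.1 and 24.3 in SCR and at 11.6, 5.37 and 9.02 in KD. It was lower in KD than in SCR by a log2 fold change of -1.45 (SE 0.23, adjusted p = 0.0277, edgeR quasi-likelihood test, as for every adjusted p here unless DESeq2 is named). With LPS the KD libraries held 15.8, 14 and 13.8 CPM and the SCR libraries 21.9, 27.5 and 18.7, and the difference of -0.65 (SE 0.22) had an adjusted p of 0.262. The WT libraries with LPS held 19.2, 20.3 and 11.6 CPM and overlapped KD (KD minus WT -0.23, SE 0.23, adjusted p = 0.563). The KD and SCR responses to LPS differed by 0.80 (SE 0.32, adjusted p = 0.612), so a change of the knockdown between states was not shown. Total counts were 8206023 to 22344279 per library, so that a count of 0 allows up to 0.133 to 0.378 CPM (3 counts, counting error only). Of the monocyte markers, 8 of 9 were tested (means of 1.29 CPM for MPO to 286 CPM for FCGR1A) while CEBPA had at most 2 counts in a library. Of 10 markers of other cell types, 3 were tested and the other 7 had at most 6 counts in a library or no row.

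All members were measured in every library, with 83 to 3794 counts. Averaged over the 18 libraries, XPO5 had 119 ± 15.6 CPM (SD, n = 18) and DROSHA 82.3 ± 11.9, and the other 8 members lay between 11 ± 1.97 (TARBP2) and 30.6 ± 6.63 (DICER1). The reads come from 3′ ends and were counted in 500 bases of each gene, read here as its 3′ end because the study's wording is unclear. DCP1A, a widely expressed decapping cofactor, had 0 counts. Levels were therefore compared between groups within a gene and not between genes.

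**Figure D1:**
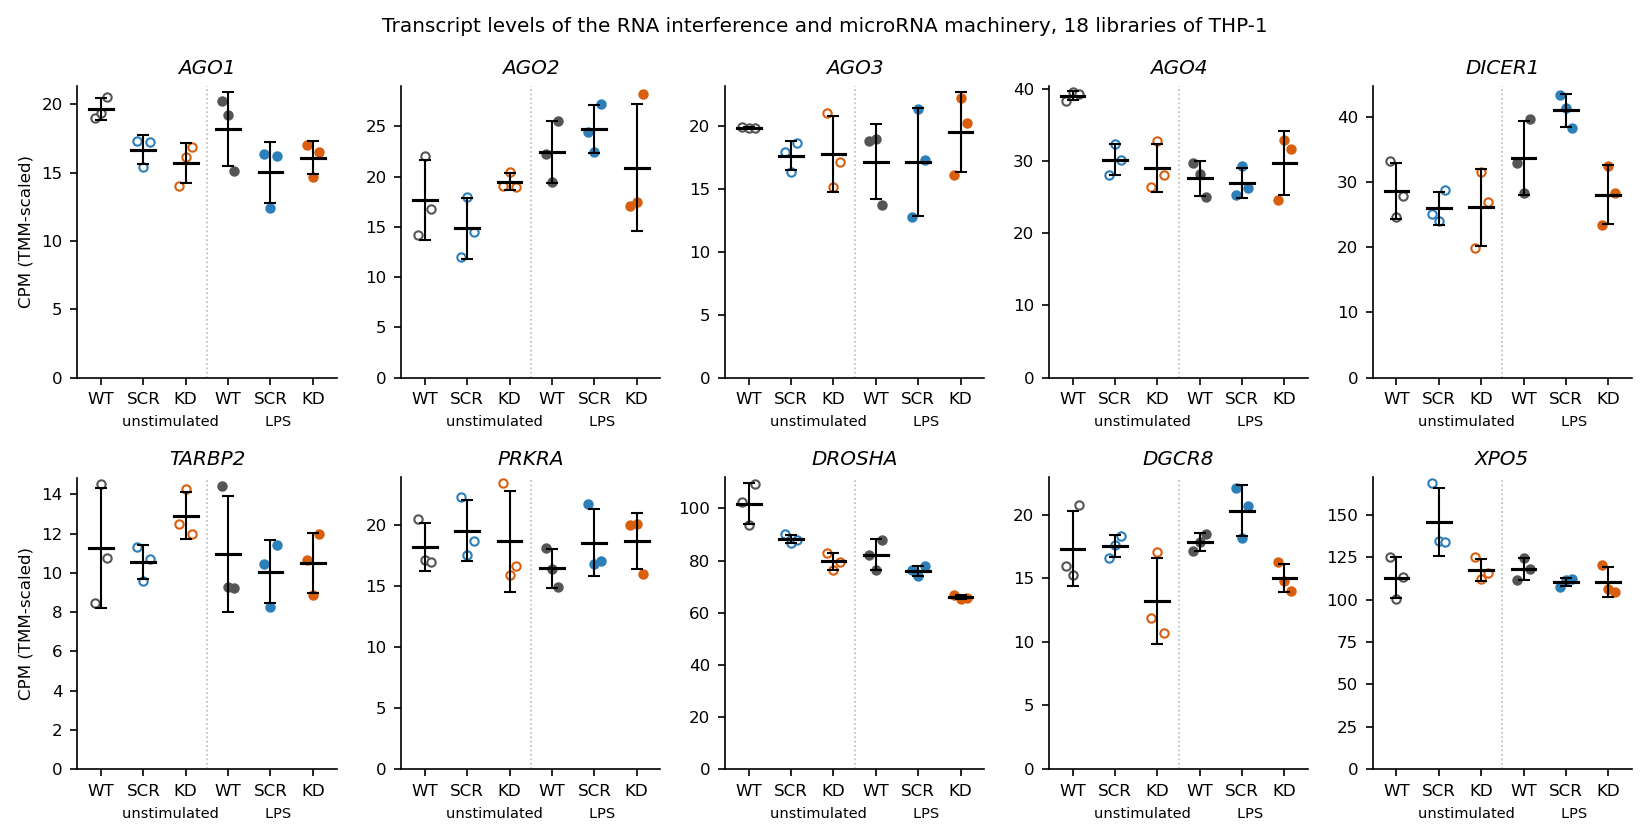
Level of each of the 10 members in CPM (vertical axes, linear and starting at 0) in the 6 groups; points are libraries (open unstimulated, filled LPS), wide bars the mean and thin bars the SD of 3 libraries. DROSHA was highest in unstimulated WT (93.7 to 109 CPM) and lowest in KD with LPS (65.4 to 66.8 CPM), and AGO4 stood at 38.3 to 39.5 CPM in unstimulated WT against 24.6 to 32.9 CPM in all other libraries.

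DROSHA, the nuclease of the Microprocessor, was the member with the steadiest difference between siRNA-treated and WT cells. It held 103, 93.7 and 109 CPM in unstimulated WT, 90.1, 86.8 and 87.9 in SCR and 83.1, 76.3 and 79.6 in KD. All 6 unstimulated libraries with an siRNA lay below all 3 without. With LPS it held 82.3, 76.3 and 88.0 CPM in WT, 76.4, 74.0 and 77.8 in SCR and 66.8, 65.4 and 65.5 in KD, where SCR overlapped WT and KD did not.

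Over both states DROSHA was lower in the 12 libraries with an siRNA than in the 6 without by a log2 fold change of -0.25 (SE 0.05, 95% interval -0.36 to -0.14, adjusted p = 0.00344), which is a decrease by 15.8%. It was the 1 of 10 members called, where 17.2% of all tested genes were called. The call held in each of 18 fits that left out 1 library (adjusted p 0.0024 to 0.0201) and in 4 other analyses (0.000124 to 0.0129). AGO1 had about the same difference, -0.26 (SE 0.09), with an adjusted p of 0.0521. It was called without WT replicate 6 (adjusted p = 0.0337), without KD replicate 3 (0.048) and under 3 other analyses. The other 8 members had differences of -0.18 (AGO4) to 0.12 (PRKRA), and the median of the 10 was -0.05 beside 0.01 over all tested genes.

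Split by siRNA, the DROSHA difference was larger for KD than for SCR, although the step between the siRNAs did not pass the test. KD lay below WT by -0.36 (SE 0.09, adjusted p = 0.0113) in unstimulated cells and by -0.32 (SE 0.09, adjusted p = 0.0254) with LPS. SCR lay below WT by -0.21 (SE 0.09, adjusted p = 0.217) and -0.11 (SE 0.09, adjusted p = 0.603), with 95% intervals of -0.39 to -0.02 and -0.30 to 0.07. KD libraries were below SCR libraries without overlap in both states (these groups did not overlap, in either direction, for 15.1% of all genes before LPS and 21.5% with LPS), by -0.15 (SE 0.09, adjusted p = 0.505) and -0.21 (SE 0.09, adjusted p = 0.365). The unstimulated call of KD against WT was lost without WT replicate 3 (adjusted p = 0.0758), and the call with LPS was lost without WT replicate 4 (0.0658) or 6 (0.149) or KD replicate 4 (0.0614), 5 (0.0896) or 6 (0.0751). In KD, mitochondrial genes took 3.87% to 4.86% of the counts without LPS, against 3.19% to 3.47% in WT and SCR, and the part of this in the result was not tested.

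Among the Argonautes, AGO4 was lower with either siRNA in unstimulated cells, called for KD (-0.43, adjusted p = 0.030) and not for SCR (-0.37, adjusted p = 0.107). It held 38.3, 39.5 and 39.2 CPM in WT, 28.1, 32.3 and 30.1 in SCR and 26.4, 32.7 and 28 in KD. The siRNA groups did not overlap WT, and their mean was lower than WT by a log2 fold change of -0.40 (SE 0.11, 95% interval -0.62 to -0.18, adjusted p = 0.0199), which is a decrease by 24.2%. With LPS the difference was 0.04 (SE 0.11, 95% interval -0.19 to 0.27), since WT libraries held 29.7, 28.2 and 25.0 CPM, SCR 25.3, 29.3 and 26.3, and KD 24.6, 32.9 and 31.6. The test of the change of the siRNA difference between states gave 0.44 (SE 0.15, adjusted p = 0.229), so a loss of the difference with LPS was not shown. The unstimulated call rested on having all 3 WT libraries: it was lost without replicate 1 (adjusted p = 0.058), 2 (0.054) or 3 (0.0841). The difference itself hardly moved in these fits (-0.41, -0.39 and -0.40), while its SE rose to 0.13, 0.12 and 0.13. The call was also lost after GC correction (-0.35, adjusted p = 0.0503) and in a fit of the compared libraries alone (-0.39, adjusted p = 0.0722).

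In unstimulated cells AGO4 and DROSHA were thus the 2 of 10 members called between siRNA and WT, beside 10.3% of all tested genes. DROSHA differed by -0.28 (SE 0.08, adjusted p = 0.0203), and its call was lost without WT replicate 1 (adjusted p = 0.0745) or 3 (0.155). That call was also lost without the filter on low counts (0.0918) and in a fit of the compared libraries alone (0.108). The groups did not overlap for 3 members, these 2 and AGO1, beside 11.2% of all genes. Of 5 genes used to check the LPS labels, 3 (TNF, CXCL10 and NFKBIA) were higher with siRNA than in the same WT libraries, while CXCL8 (adjusted p = 0.0508) and IL1B (-0.04, adjusted p = 0.955) did not pass. TNF, an inflammatory cytokine, had 12.7 to 18.7 CPM in unstimulated WT and 34.9 to 49.6 CPM in the 6 libraries with an siRNA, and was higher with siRNA by 1.45 (SE 0.14, adjusted p = 1.77e-06). The part of this in the differences of AGO4 and DROSHA was not tested.

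AGO1 held 19.0, 19.3 and 20.5 CPM in unstimulated WT, 17.3, 15.4 and 17.2 in SCR and 14, 16.1 and 16.9 in KD. With LPS it held 20.2, 19.2 and 15.1 in WT, 16.4, 12.4 and 16.2 in SCR and 17.0, 14.7 and 16.5 in KD. WT had the highest mean in both states, without overlap before LPS and with overlap after it, and no contrast within a state passed the test (-0.28, SE 0.12, adjusted p = 0.165 for both siRNAs before LPS and -0.23, SE 0.13, adjusted p = 0.284 with LPS).

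AGO2 did not pass the test between siRNA and WT in either state. It held 14.2, 22.1 and 16.8 CPM in unstimulated WT, 12, 18 and 14.5 in SCR and 19.1, 20.5 and 19.0 in KD, and the siRNA mean differed from WT by -0.05 (SE 0.17, 95% interval -0.41 to 0.30). With LPS it differed by 0.02 (SE 0.17, 95% interval -0.34 to 0.37). KD lay above SCR without overlap before LPS (no overlap in either direction for 15.1% of all genes), by 0.41 (SE 0.20, adjusted p = 0.407). AGO3, which lies beside AGO1 and AGO4 on chromosome 1, held 19.9 CPM in each unstimulated WT library and 15.1 to 21.1 in the 6 libraries with an siRNA, a difference of -0.16 (SE 0.15, adjusted p = 0.559).

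DICER1, which cuts hairpins and long double-stranded RNA into duplexes, held 33.3, 24.7 and 27.9 CPM in unstimulated WT, 25.2, 24 and 28.8 in SCR and 19.9, 31.6 and 26.9 in KD. These ranges overlapped, and the siRNA mean differed from WT by -0.14 (SE 0.14, adjusted p = 0.599). TARBP2, which helps DICER1 to load Argonaute, ran from 8.48 to 14.5 CPM in unstimulated WT and from 9.59 to 14.3 in the libraries with an siRNA (0.07, SE 0.18, adjusted p = 0.86). PRKRA, the other double-stranded RNA-binding partner and an activator of the kinase PKR, ran from 16.9 to 20.5 and from 15.9 to 23.4 CPM (0.07, SE 0.14, adjusted p = 0.803). With LPS the siRNA differences of DICER1, TARBP2 and PRKRA were 0.01 (SE 0.14), -0.09 (SE 0.18) and 0.17 (SE 0.15), with adjusted p values of 0.973, 0.807 and 0.517. The 95% interval of TARBP2, the member with the fewest counts, was -0.31 to 0.44 before LPS, so a change of a size within that interval was not excluded.

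XPO5 was highest in unstimulated SCR. It held 125, 101 and 113 CPM in WT, 169, 135 and 134 in SCR and 125, 112 and 116 in KD. SCR did not overlap either other group, with a log2 fold change of 0.37 over WT (SE 0.10, adjusted p = 0.0573) and with KD lower than SCR by -0.31 (SE 0.10, adjusted p = 0.203). With LPS the 9 libraries ran from 104 to 125 CPM in all 3 groups together. DGCR8, the RNA-binding partner of DROSHA, held 16.0, 15.3 and 20.7 CPM in unstimulated WT, 16.6, 17.6 and 18.3 in SCR and 11.9, 17.0 and 10.7 in KD. Its KD difference from WT was -0.40 (SE 0.16, adjusted p = 0.123) and became -0.62 (adjusted p = 0.0173) without KD replicate 2.

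Counted by pair of groups, SCR against WT called 0 of 10 members before LPS (3.23% of all genes) and 0 of 10 with LPS (0.114%), with 3 and 0 members at an unadjusted p under 0.05. DESeq2 on all libraries called XPO5 before LPS (adjusted p = 0.0186) and 0 with LPS. KD against WT called AGO4 and DROSHA before LPS, 2 of 10 beside 11.7% of all genes, and DROSHA with LPS, 1 of 10 beside 10.8%. These shares rest in part on single libraries: 1951 genes became 962 without WT replicate 3 before LPS, and 1808 became 376 without WT replicate 6 with LPS. They also rest on the fit: in the compared libraries alone, KD against WT called 280 of 15493 genes before LPS. With LPS that fit called 3235 of 14990. AGO4 lay lower in KD by -0.43 (SE 0.13, adjusted p = 0.030) and lost its call without WT replicate 1 (adjusted p = 0.0658), 2 (0.0614) or 3 (0.0908) or KD replicate 1 (0.0941) or 3 (0.0882). Both siRNAs against WT with LPS called 0 of 10 beside 5.77%, with DROSHA alone at an unadjusted p under 0.05 (-0.22, SE 0.08, adjusted p = 0.0928) and called by DESeq2 (adjusted p = 0.0367). These comparisons share the WT libraries.

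Between the siRNAs, where both groups were transfected, KD against SCR called 0 of 10 members in either state, beside 0.0660% of all genes before LPS and 0% with LPS. At an unadjusted p under 0.05 there were 2 members before LPS (DGCR8 and XPO5) and 3 with LPS (DICER1, DROSHA and DGCR8). DICER1 had the largest of these differences: with LPS it held 43.4, 41.4 and 38.3 CPM in SCR and 23.4, 32.5 and 28.3 in KD, a difference of -0.54 (SE 0.17, 95% interval -0.89 to -0.20, adjusted p = 0.217). DESeq2 on all 18 libraries called 0 members in either state, beside 242 of 14413 genes before LPS and 142 of 4714 with LPS. DESeq2 on the 6 libraries of the pair called DICER1 with LPS (adjusted p = 0.0104), beside 619 of 9473 genes. DGCR8 was lower in KD by -0.41 (SE 0.16, adjusted p = 0.297) before LPS and by -0.43 (SE 0.16, adjusted p = 0.31) with LPS, where SCR held 22.1, 18.1 and 20.7 CPM and KD 16.3, 14.8 and 14. The end of DGCR8 (4166 counts in all libraries together) overlaps the end of TRMT2A (3793 counts) on the opposite strand by 3 bases. The end of AGO1 overlaps that of the non-coding gene ENSG00000271914, also on the opposite strand, by 187 bases. That gene had 9 counts in all libraries together, against 4202 for AGO1. Of genes overlapping the span of a member outside its end, the most counted was the pseudogene ENSG00000219470 (37031 counts). It lies on the same strand as XPO5 (29982 counts) and overlaps its span by 882 bases. POLR1C (12508 counts) overlaps the span of XPO5 by 40085 bases on the opposite strand. Whether counting used strand is not given in the sources used here.

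**Figure D2:**
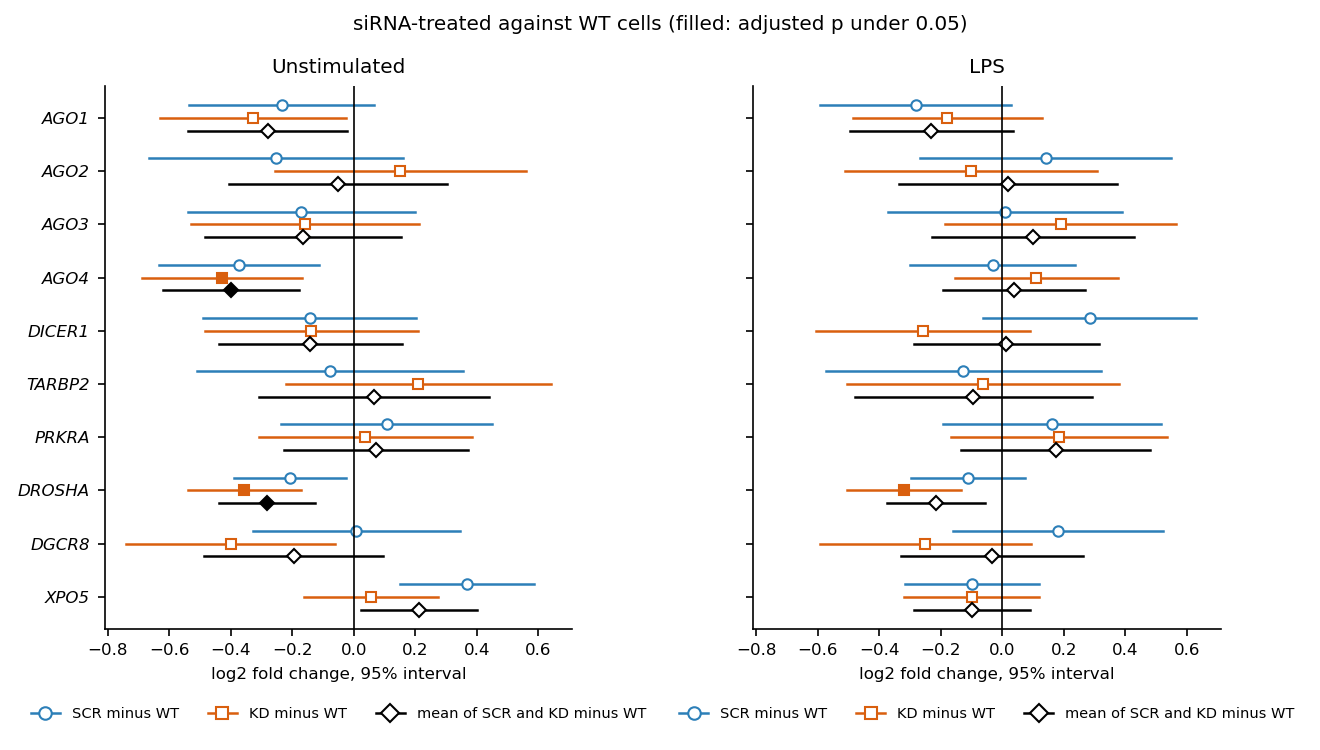
Log2 fold change of each member (horizontal axis) with its 95% interval for SCR, KD and their mean against WT, in unstimulated cells (left) and with LPS (right); filled symbols passed an adjusted p of 0.05. AGO4 and DROSHA are filled before LPS for KD and for the mean (-0.43 to -0.28), and DROSHA for KD with LPS (-0.32), while no SCR symbol is filled.

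LPS itself went with changes in 4 of 10 members when averaged over the 3 conditions, beside 33.0% of all tested genes. AGO2 and DICER1 rose and DROSHA and AGO4 fell. As a check of the LPS labels, TNF, IL1B, CXCL8, CXCL10 and NFKBIA all rose, by 2.08 (NFKBIA) to 5.74 (CXCL10) on the log2 scale, with no overlap between the 9 libraries with and the 9 without LPS.

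DROSHA fell by 0.27 on the log2 scale (SE 0.05, adjusted p = 0.000354), which is a decrease by 16.9%. The 9 unstimulated libraries ran from 76.3 to 109 CPM with a median of 87.9, and the 9 LPS libraries from 65.4 to 88.0 with a median of 76.3. Within each condition the LPS libraries lay below the unstimulated ones without overlap, as the groups did in either direction for 32.5% of all genes in WT, 37.3% in SCR and 25.4% in KD. The changes were -0.31 in WT (SE 0.09, adjusted p = 0.0200), -0.22 in SCR (SE 0.09, adjusted p = 0.1) and -0.27 in KD (SE 0.09, adjusted p = 0.0487). The mean change was called in all 18 fits without 1 library (adjusted p 0.000233 to 0.00147). Mitochondrial genes took 3.19% to 4.86% of the counts without LPS and 3.72% to 5.20% with it, and the part of this in the fall of DROSHA was not tested. The WT call was lost without unstimulated replicate 1 (adjusted p = 0.0581) or 3 (0.11) or LPS replicate 4 (0.0667) or 5 (0.117), and the KD call was lost without any 1 of its 6 libraries (0.0615 to 0.138). Ordered by mean, DROSHA stood at 102 ± 7.78 CPM (SD, n = 3) in unstimulated WT, 88.3 ± 1.70 in unstimulated SCR, 82.2 ± 5.88 in WT with LPS, 79.7 ± 3.36 in unstimulated KD, 76.1 ± 1.91 in SCR with LPS and 65.9 ± 0.748 in KD with LPS. Neighbours in this order overlapped from unstimulated SCR through to SCR with LPS, whereas unstimulated WT lay above and KD with LPS below all other groups.

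AGO2 rose by 0.40 (SE 0.11, 95% interval 0.16 to 0.64, adjusted p = 0.00984). Its 9 unstimulated libraries had a median of 18 CPM (12 to 22.1) and its 9 LPS libraries a median of 22.5 (17.0 to 28.2). The rise was 0.75 in SCR (SE 0.20, adjusted p = 0.0117), from 12, 18 and 14.5 CPM to 24.5, 22.5 and 27.2, without overlap (37.3% of all genes in either direction). It was 0.35 in WT (SE 0.20, adjusted p = 0.269), where the LPS libraries held 22.3, 19.5 and 25.6 CPM, and 0.10 in KD (SE 0.20, adjusted p = 0.796), where they held 17.0, 17.5 and 28.2. The test of the difference between the KD and SCR responses gave -0.65 (SE 0.28, adjusted p = 0.632). The mean change was called in all 18 fits without 1 library (adjusted p 0.00371 to 0.0284), and the SCR call was lost without unstimulated replicate 1 (adjusted p = 0.0822) or LPS replicate 6 (0.0542).

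DICER1 rose by 0.33 (SE 0.10, 95% interval 0.13 to 0.53, adjusted p = 0.0111). In SCR the step was from 25.2, 24 and 28.8 CPM to 43.4, 41.4 and 38.3, a rise of 0.66 (SE 0.17, adjusted p = 0.00864) that was called without any 1 of its 6 libraries (adjusted p 0.0152 to 0.0411). In WT, LPS libraries held 33.0, 28.4 and 39.7 CPM, a difference of 0.23 (SE 0.17, adjusted p = 0.418), and in KD 23.4, 32.5 and 28.3 (0.11, SE 0.17, adjusted p = 0.73). The KD and SCR responses differed by -0.55 (SE 0.24, adjusted p = 0.632), so a response of DICER1 particular to SCR was not shown. The mean rise was called in all 18 fits without 1 library (adjusted p 0.00304 to 0.0325) and was 0.25 (adjusted p = 0.0649) after a correction for GC content, which at the end of DICER1 is 28.4%.

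AGO4 fell by 0.21 on the log2 scale over the 3 conditions (SE 0.07, adjusted p = 0.0350), with the largest change in WT, where it went from 38.3, 39.5 and 39.2 CPM to 29.7, 28.2 and 25.0, a change of -0.50 (SE 0.13, 95% interval -0.76 to -0.24, adjusted p = 0.00942), against -0.16 in SCR (SE 0.13, adjusted p = 0.44) and 0.04 in KD (SE 0.13, adjusted p = 0.884). The LPS change in WT and the siRNA difference before LPS share the 3 unstimulated WT libraries. The mean call was lost in 10 of 18 fits without 1 library (WT replicate 2, 3, 5 or 6, SCR replicate 2, 3, 4 or 6, KD replicate 2 or 4), with adjusted p values of 0.0535 to 0.0863, and without the filter on low counts (0.098), and the WT call was lost without LPS replicate 6 (0.0636).

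XPO5 fell in SCR with LPS, from 169, 135 and 134 CPM to 108, 111 and 112, by 0.40 on the log2 scale (SE 0.10, adjusted p = 0.0105). Without unstimulated SCR replicate 1, the library at 169 CPM, the change was -0.28 (adjusted p = 0.0964). WT and KD differed with LPS by 0.06 (SE 0.10) and -0.09 (SE 0.10), with adjusted p values of 0.76 and 0.622, and the SCR response differed from that of WT by -0.47 (SE 0.15, adjusted p = 0.336). Over the 3 conditions XPO5 changed by -0.14 (SE 0.06, adjusted p = 0.0741), and was called without WT replicate 2 (0.0383). The remaining members, AGO1, AGO3, TARBP2, PRKRA and DGCR8, had mean changes of -0.14 (TARBP2) to 0.14 (DGCR8) and adjusted p values of 0.261 or more.

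By condition, LPS thus called 2 of 10 members in WT (AGO4 and DROSHA, beside 14.3% of all genes), 3 in SCR (AGO2, DICER1 and XPO5, beside 17.2%) and 1 in KD (DROSHA, beside 11.5%). None of the 3 interaction tests called a member, at 0.234% of all genes for SCR against WT, 0% for KD against SCR and 0.390% for both siRNAs against WT. At an unadjusted p under 0.05 there were 1, 3 and 2 members in these tests, and DESeq2 called 0 in each. Different members passed the threshold in the 3 conditions, but a difference between their responses was not shown.

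**Figure D3:**
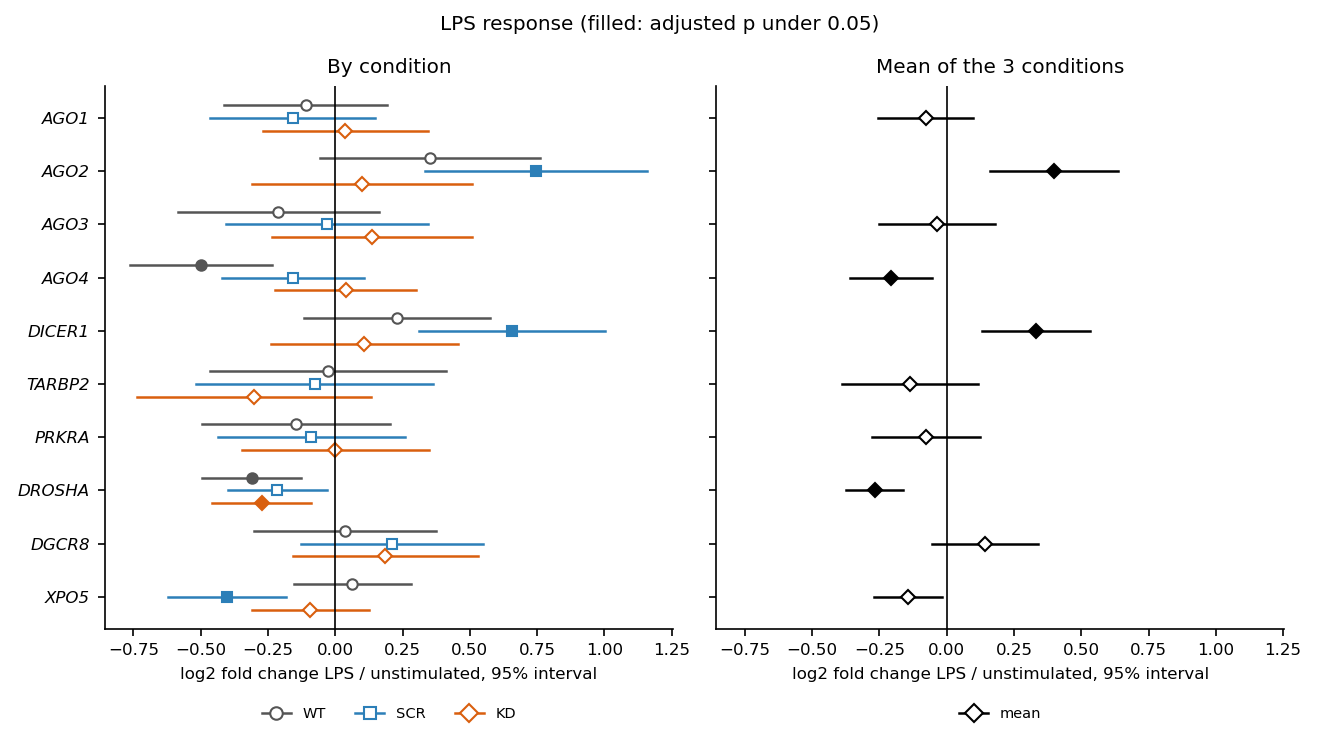
Log2 fold change of LPS over unstimulated cells (horizontal axis) with its 95% interval for each member, by condition (left) and averaged over the 3 conditions (right); filled symbols passed an adjusted p of 0.05. In the average AGO2 (0.40) and DICER1 (0.33) lie to the right and AGO4 (-0.21) and DROSHA (-0.27) to the left, and the intervals of the conditions overlap for most members.

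As a description across the 18 libraries, which share the LPS and siRNA steps, the genes whose log2 CPM ran most like DROSHA were WNK1 (Pearson r = 0.966), SACM1L (0.965) and CDK19 (0.957). For DICER1 they were ENSG00000259806 (0.870), DDX55 (0.831) and ICE1 (0.830), and for AGO2 ENSG00000257884 (0.863), PDIA3 (0.860) and LA16c-60G3.8 (0.860). Between members the correlations ran from -0.73 (AGO2 and XPO5) to 0.58 (DICER1 and DGCR8).

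The rest of the pathway was read from lists of 59 genes that work with these proteins, of which 55 were tested. Over both states 8 were higher and 8 lower with an siRNA, 16 of 55 where 17.2% of all genes were called. Among nuclear cofactors of the Microprocessor, HNRNPA1 (0.22), NCBP2 (0.34) and DDX5 (0.17) were among 4 that rose and KHSRP (-0.47, SE 0.08, adjusted p = 0.000819), DDX17 (-0.20) and SRRT (-0.19) were the 3 of 10 that fell. KHSRP binds the terminal loop of some precursors, and DDX5 and DDX17 are helicases of the same complex. Of the genes that bind or edit double-stranded RNA, ADAR, the editing enzyme, was lower by -0.29 (SE 0.04, adjusted p = 0.000117) and DHX9, a helicase, was higher by 0.49 (SE 0.12, adjusted p = 0.00949), 1 each way of 6. Among chaperones and factors of guide loading, PTGES3 (0.25) and HSPA8 (0.16) rose and SND1 (-0.19) fell, of 10.

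Downstream of Argonaute, the 3 GW182 scaffolds TNRC6A, TNRC6B and TNRC6C, which join Argonaute to the deadenylases, had 0 calls over both states. Of 13 genes listed for deadenylation (the CCR4-NOT and PAN2-PAN3 complexes) CNOT11 (-0.27) and PAN3 (-0.22) fell and 0 rose. Of 8 tested decapping and decay genes LSM14A rose (0.54), and of 5 tested genes of precursor uridylation and turnover TUT7 fell (-0.29). Outside these lists, the PIWI genes PIWIL2 and PIWIL4 had 0 calls. Before LPS alone, 3 of the 55 rose and 3 fell, where 10.3% of all genes were called. KHSRP (-0.52), ADAR (-0.39) and STAU2 (-0.43) fell and HNRNPA1 (0.26), PTGES3 (0.29) and ZC3H12A (0.52) rose. With LPS alone 2 of the 55 rose and 3 fell, where 5.77% of all genes were called. KHSRP (-0.41), CNOT11 (-0.43) and ZC3H12A (-0.51) fell and DHX9 (0.74) and LSM14A (0.97) rose. ZC3H12A, the RNase Regnase-1, thus lay on opposite sides of WT in the 2 states.

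With LPS, averaged over the conditions, 12 of the 55 rose and 6 fell, 18 of 55 where 33.0% of all tested genes were called. Of 10 genes of guide loading and passenger removal 3 rose, the chaperones HSPA8 by 0.82 (SE 0.05, adjusted p = 7.28e-12), HSP90AA1 by 0.70 (SE 0.04) and HSP90AB1 by 0.50 (SE 0.04), while PTGES3 did not pass (0.09, adjusted p = 0.145) and TSNAX, a subunit of the nuclease that removes passenger strand pieces, fell by 0.54. ZC3H12A rose by 2.91 (SE 0.08, adjusted p = 2.98e-17). Of the 13 genes listed for deadenylation 5 fell, CNOT6 (-0.42), PAN3 (-0.32) and CNOT8 (-0.62) among them, and CNOT4 rose (0.25). EIF2AK2, the kinase PKR that PRKRA can activate, rose by 0.47 and DHX9 by 0.39, and XRN1 (0.24) and PATL1 (0.30) rose among the decay genes. NCBP2 (0.42) and ILF2 (0.28) rose among the nuclear cofactors, and the scaffolds again had 0 calls.

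**Figure D4:**
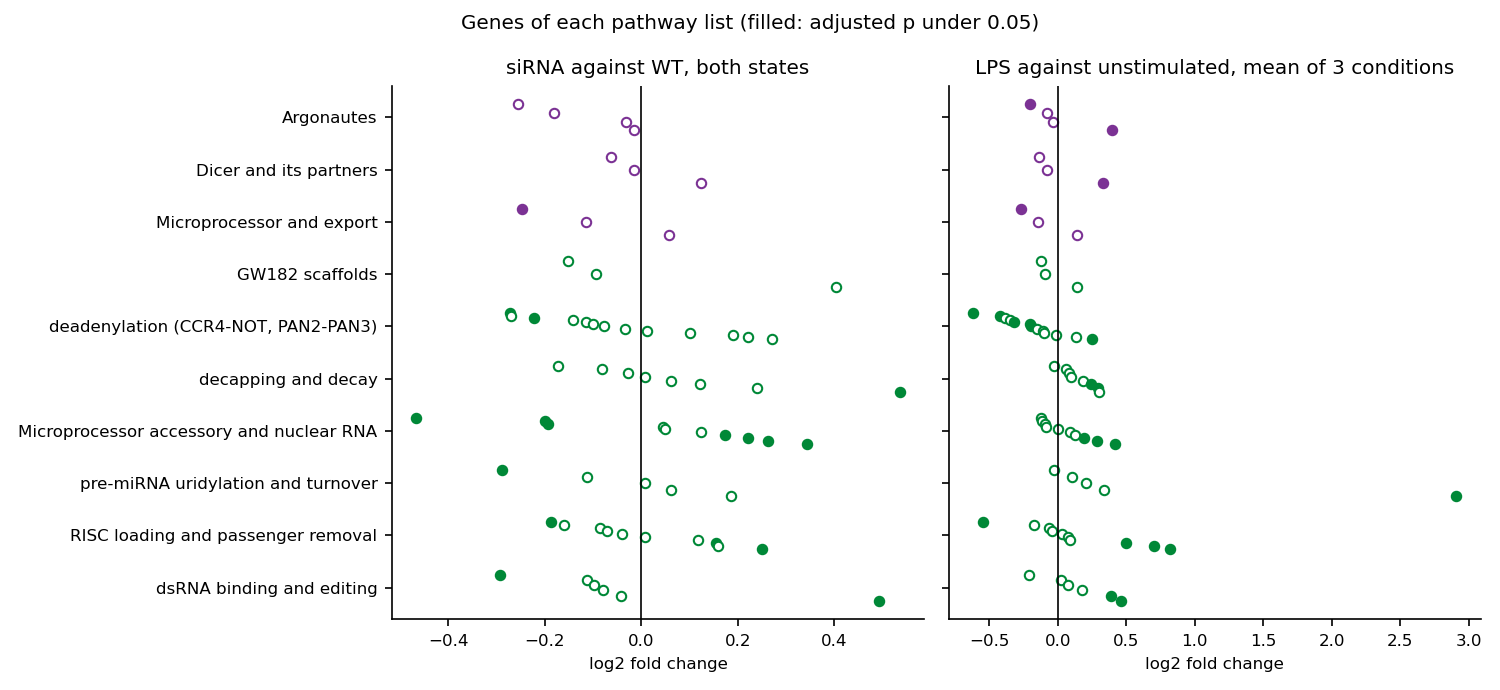
Log2 fold change (horizontal axis) of each tested gene in the 3 groups of members (purple) and 7 pathway lists (green), for siRNA against WT over both states (left) and for LPS averaged over the conditions (right); filled points passed an adjusted p of 0.05, and points within a row are spread vertically for legibility. Called points lie on both sides of 0 on the left, DROSHA (-0.25) the only member among them, and ZC3H12A (2.91) is the point farthest right for LPS.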

How the data were processed

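RNA from 18 cultures of THP-1 was sequenced with QuantSeq, a 3′ end kit. Per the labels, reads were aligned with HISAT to GRCh37 and counted with featureCounts. The study's methods restrict the annotation to 500 bases of each gene, in a wording that names both its last bases and 5′. This was read here as the terminal 500 bases at the 3′ end, and the GC values and overlaps of ends rest on that reading. The table the authors deposited holds raw read counts, pooled over no replicates. After filterByExpr (by group) had removed lowly counted genes, edgeR 4.0.16 (R 4.3.3) was used to fit 1 quasi-likelihood model with TMM scaling and a mean for each of the 6 groups to all 18 libraries. In each of 16 contrasts, Benjamini-Hochberg adjustment ran over all 16678 tested genes and 0.05 was the threshold. Fold changes are on the log2 scale. CPM are counts relative to the TMM-scaled library total. Symbols came from GENCODE v44lift37 (55665 of 63677 genes).

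The members, the pathway lists and the markers were chosen with earlier results of these data known. Named pathway genes are at most 3 per list and direction with the smallest adjusted p. The script was tested on simulated data. Alternatives were other scaling, no filter, DESeq2 1.42.0, GC correction, a replicate block, fits of the compared libraries alone and leaving out each library. Same-numbered libraries of SCR and WT with LPS deviated together (correlations of 0.163, 0.253 and 0.261), and the block left 0 members called there. The other pairs of groups did not meet this check. Columns not assigned to a sample numbered 0. The result for 1 gene of the pathway lists is not reported here.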

Additional observations from a re-analysis of the deposited data

How the results depend on the processing

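No called value of a member changed direction in the analyses run, and 167 values that were not called and lay within 1 SE of 0 changed sign. Leaving out 1 library at a time, 1456 of 1500 values stayed on their side of the threshold, 40 lost a call and 4 gained one, and under the other alternatives these were 967, 20 and 13 of 1000. DROSHA over both states with siRNA, and DROSHA and AGO2 over the conditions with LPS, were called in every one of these fits. The causes of the following changes were not tested.

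Without the filter, with 34092 genes tested, members called were 0 for KD against WT in both states (2 and 1 in the report), 1 for siRNA against WT before LPS (2), 1 for KD against SCR with LPS (0), and 1 and 0 for LPS in WT and KD (2 and 1), and AGO4 lost its call for LPS over the conditions (-0.21, adjusted p = 0.098). GC correction gave 1 for SCR against WT before LPS (0), 1 for KD against WT before LPS, 1 and 1 for siRNA against WT before and with LPS (2 and 0), and 2 over both states (1). DESeq2 on 18 libraries gave 1 for SCR against WT before LPS, 1 for siRNA with LPS and 2 over both states, where RLE scaling also gave 2. Fits of the compared libraries alone, with fewer samples, gave 0 for KD against WT and for siRNA against WT before LPS, 1 for siRNA with LPS, and 1 and 0 for LPS in WT and KD. DESeq2 on the pair gave 0 for KD against WT before LPS, 1 for KD against SCR with LPS, and 1 and 0 for LPS in WT and KD.

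The replicate block called 1 member for SCR against WT before LPS, XPO5 (adjusted p = 0.0210), as did the replicate block with GC correction (0.0188). The latter also called 1 for siRNA with LPS, DROSHA (0.0184), and the block changed no other member's call in the comparisons within a state. Same-numbered libraries correlated at -0.0875 to 0.304.

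Leaving out 1 library gave 0 to 3 members for KD against WT before LPS, 0 to 1 with LPS, 0 to 2 for siRNA before LPS, 1 to 2 over both states, 1 to 2 for LPS in WT, 1 to 3 in SCR and 0 in KD.

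Over all genes, siRNA against WT before LPS called 1721 genes and 724 in a fit of those libraries alone. With LPS it called 963, against 1693 without the filter, 1607 with DESeq2, 1932 with the block, 1912 with the block and GC correction and 2331 in those libraries alone. The interaction of both siRNAs called 65, against 572 and 243 without the filter and with DESeq2. Without 1 library, siRNA against WT called from 732 (WT replicate 3) to 1845 before LPS, from 55 (WT replicate 6) to 1204 with LPS, and from 1705 (WT replicate 3) to 3472 over both states (2869 in the report), and the interaction from 32 (WT replicate 5) to 613 (KD replicate 1). KD against WT called 962 (WT replicate 3) to 1934 before LPS (1951) and 376 (WT replicate 6) to 1428 with LPS (1808), and SCR against WT 193 (SCR replicate 1) to 510 before LPS (538) and 0 (SCR replicate 5) to 14 with LPS (19). KD against SCR before LPS called 1 (SCR replicate 1) to 52 (KD replicate 1) beside 11. Under the other alternatives it called 0 (those libraries alone) to 320 (no filter), with 183 under the block and 242 with DESeq2 on 18 libraries. With LPS, KD against SCR called 0 in the report and 0 (RLE scaling) to 619 (DESeq2 on the pair) under these alternatives. There the block gave 85, DESeq2 on 18 libraries 142 and those libraries alone 161. LPS called 1789 (SCR replicate 4) to 2376 in SCR (2869) and 1098 (KD replicate 5) to 3150 (KD replicate 1) in KD (1912), and the interaction of SCR 17 (WT replicate 1) to 91 (WT replicate 2) beside 39.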
